A study of Homo sapiens with 4 samples.

Results

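The genes of glycolysis and the genes known to be induced by low oxygen were followed in the human gastric adenocarcinoma cell line AGS 8 h after the medium was changed. The members were 33 gene symbols chosen for their known roles, and a gene was measured where the platform annotation gave at least 1 probe set that symbol alone. This held for 32 of the 33, out of 19775 genes measured in all, through 66 probe sets. CA9 had no such probe set and was not analysed here. The values were log2 expression on 4 Affymetrix arrays, 2 of untreated cells given fresh medium and 2 of cells given medium that held lipopolysaccharide (LPS, a glycolipid of the bacterial outer membrane) of Helicobacter pylori at 10 µg/ml. Both groups grew in the same medium with foetal calf serum, and the design text counts 2 independent experiments. Nothing in the labels speaks of reduced oxygen in any group. The comparison asks which transcripts of gastric epithelial cells differ between purified LPS and no LPS. No group was given live bacteria. Each gene is described by its brightest probe set, the one with the highest mean over the 4 arrays, and ALDOA by every probe set.

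Glycolysis splits glucose into pyruvate and yields ATP without oxygen, and lactate dehydrogenase then turns pyruvate into lactate. The transcription factor HIF-1, a pair of the subunits HIF1A and ARNT, induces most enzymes of the pathway when oxygen is low. In oxygen, EGLN prolyl hydroxylases mark HIF1A, and VHL directs it to the proteasome, so that much of its control is on the protein and not on its mRNA. In macrophages, bacterial LPS is known to stabilise HIF1A and to raise glycolysis. HIF-1 binds a short core, ACGTG or GCGTG, in the promoters and enhancers of its targets.

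The promoters of ALDOA, GPI, TPI1 and LDHA are shown because these genes shared low values on 1 of the treated arrays, described further on. They were chosen after their values were seen. Each sequence is the 250 bases before a RefSeq gene start (GRCh38.p14, plus strand), 5′ to 3′, for the start with the most matches to the HIF-1 core, and the capitals mark the HIF-1 core on either strand. Where ACGTG stands on both strands at once it forms CACGTG, the E-box that MYC and MXI1 bind as partners of MAX. LDHA is at chr11:18394313-18394562, ALDOA at chr16:30064247-30064496, TPI1 at chr12:6867855-6868104 and GPI at chr19:34364742-34364991.
LDHA: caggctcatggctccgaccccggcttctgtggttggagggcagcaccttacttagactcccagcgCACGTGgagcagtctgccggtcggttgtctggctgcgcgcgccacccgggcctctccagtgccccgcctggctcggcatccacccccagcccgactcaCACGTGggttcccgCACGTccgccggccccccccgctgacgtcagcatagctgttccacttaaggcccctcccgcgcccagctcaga
ALDOA: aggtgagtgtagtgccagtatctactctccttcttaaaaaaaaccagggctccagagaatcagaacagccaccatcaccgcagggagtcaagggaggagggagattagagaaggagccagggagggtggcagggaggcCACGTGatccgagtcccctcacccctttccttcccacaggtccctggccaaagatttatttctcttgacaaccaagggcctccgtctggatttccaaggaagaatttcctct
TPI1: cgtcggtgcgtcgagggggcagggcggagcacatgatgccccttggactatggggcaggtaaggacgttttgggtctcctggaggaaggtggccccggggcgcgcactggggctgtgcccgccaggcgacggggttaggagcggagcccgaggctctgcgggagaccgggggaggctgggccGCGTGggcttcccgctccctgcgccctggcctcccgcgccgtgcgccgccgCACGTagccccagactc
GPI: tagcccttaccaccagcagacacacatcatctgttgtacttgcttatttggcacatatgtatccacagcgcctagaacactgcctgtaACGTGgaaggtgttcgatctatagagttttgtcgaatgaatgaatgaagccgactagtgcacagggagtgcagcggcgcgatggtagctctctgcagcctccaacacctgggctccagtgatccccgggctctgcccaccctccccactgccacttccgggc

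The LDHA window held 3 separate sites, which begin 185, 87 and 73 bases before the start, and 2 of them are E-boxes. The ALDOA window held 1 site at 112 bases, also an E-box, and the other 2 ALDOA starts hold 1 site each. TPI1 held sites at 68 and 17 bases and GPI 1 at 162 bases. Of the 32 measured genes, 29 had a promoter in the RefSeq table, with 54 starts between them, some of which overlap. A core on either strand was found in 59.26% of these windows and in 43.21% of all 35116 windows of the same length. By form, ACGTG was found in 38.89% against 18.51%, and GCGTG in 33.33% against 32.22%. Some members were listed as genes known to be induced by low oxygen, so these shares are a description and not a test. CACGTG was found in 14.81% against 6.34%. The members' windows were also richer in G and C, with a median of 68.4% against 58.0%. A match describes letters and shows no binding, and which start AGS cells use was not measured.

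The cells had the marker profile of an epithelial line. All 10 epithelial markers lay above the median level over genes, with EPCAM at 13.43 to 13.60 on the log2 scale and KRT18 at 14.37 to 14.45. The lowest of them was KRT7, at 7.57 to 8.12. Of 18 leukocyte, fibroblast and endothelial markers measured, 14 lay below that median, and the leukocyte marker PTPRC was at 4.86 to 5.16. Those above it were the leukocyte marker LYZ (9.81 to 10.10), the fibroblast markers COL1A1 (8.56 to 8.69) and THY1, and the endothelial marker TEK. The arrays also differed technically. The hybridisation controls averaged 10.80 on LPS replicate 1 and 9.91 to 10.11 on the other arrays. The 18S ribosomal RNA probe sets stood at 10.07 and 9.89 on the arrays numbered 1 (untreated, then LPS) and at 8.12 and 7.98 on those numbered 2. The log2 ratio of the 3′ to the 5′ GAPDH control was 0.26 and 0.36 for the untreated and 0.39 and 0.36 for the LPS arrays.

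None of the 32 genes passed the test of LPS against untreated cells (limma, adjusted p = 1 for each, against 0% of all genes called). At an unadjusted p under 0.05 there was 1 member, NDRG1, or 3.125% of them, against 2.83% of all genes (1.26% higher and 1.57% lower with LPS). The treated and untreated arrays did not overlap for 8 members, or 25.0%, against 29.6% of all genes. Of these, 4 were higher with LPS (HK2, MXI1, NDRG1 and ANGPTL4), or 12.5% against a background of 17.9%. The other 4 were lower (PFKFB3, PGK1, PGAM1 and BNIP3L), or 12.5% against 11.7%. These shares are near those of all genes. The median difference was -0.01 on the log2 scale over the members and 0.02 over all genes, with 14 members above 0 and 18 below. For 29 of the 32 the 95% interval of the fit stayed within 1.5-fold either way, and the exceptions were ALDOA, GPI and NDRG1. The array values are compressed for dim probe sets, and 6 members lay below the median level over genes (PFKFB4, ENO2, ADM, BNIP3, ANKRD37 and ANGPTL4), so that their intervals may not bound the change in transcript.

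**Figure D1:**
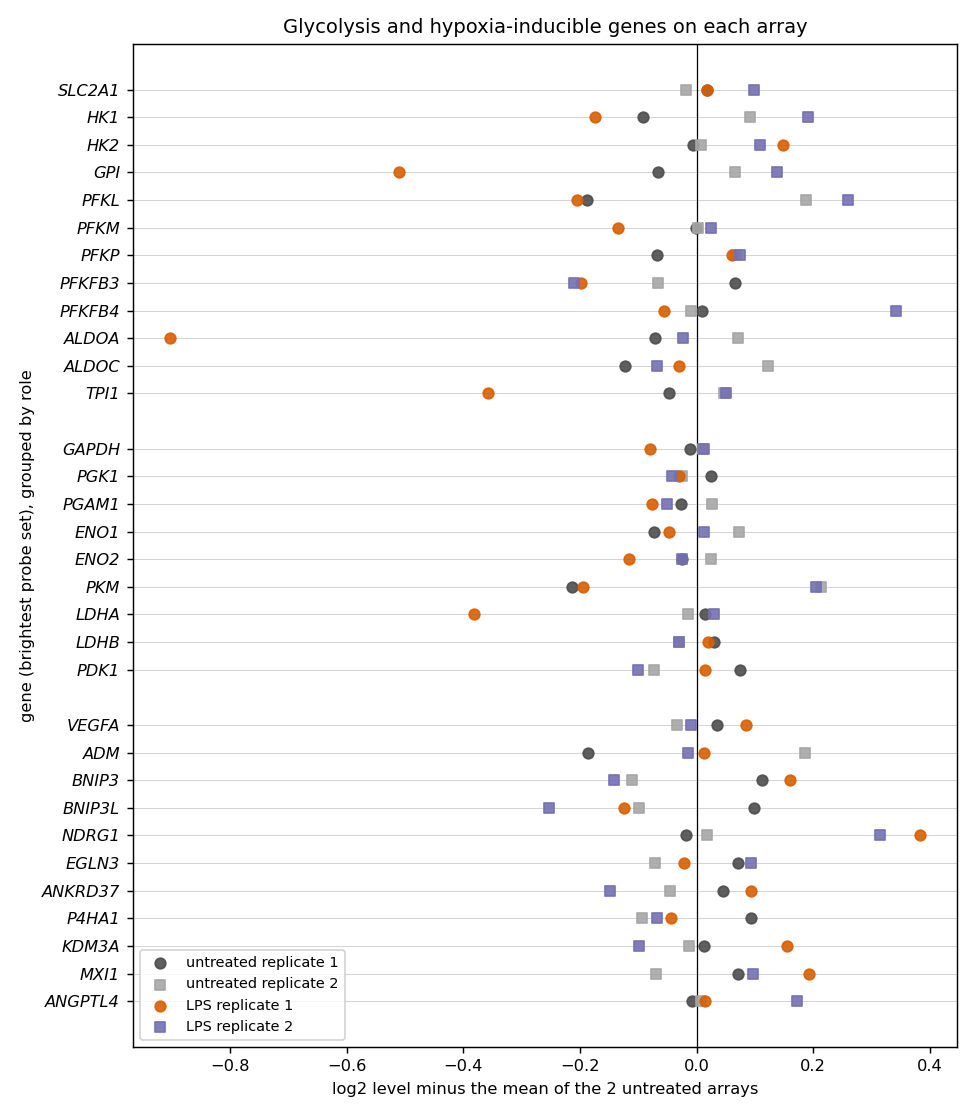
Each row is a gene and each point 1 array, as log2 level minus the mean of the 2 untreated arrays, with circles for replicate 1 and squares for replicate 2. LPS replicate 1 lies far to the left for ALDOA, GPI, LDHA and TPI1, and both LPS arrays lie to the right for NDRG1.

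ALDOA encodes aldolase A, which cleaves fructose 1,6-bisphosphate. Its brightest probe set was at 12.99 and 13.14 in untreated replicates 1 and 2, at 12.16 on LPS replicate 1 and at 13.04 on LPS replicate 2. A single treated array was low, and the other lay between the untreated arrays. Against the untreated mean, LPS replicate 1 had a ratio of 0.535 and LPS replicate 2 of 0.984. The second probe set was at 12.95 and 13.11 without LPS, then 12.19 and 13.07. The dimmest was at 10.18 and 10.22, then 9.19 and 10.01. All 3 ALDOA probe sets thus had LPS replicate 1 as the low array, at -0.90, -0.84 and -1.01 from the untreated mean. All 3 end in _x_at and can share signal with related sequences. Only the dimmest had no overlap between the groups, since LPS replicate 2 was 0.19 below the untreated mean there. Over both treated arrays the brightest differed by -0.46 ± 0.24 (SE, n = 2 arrays a group), which is a ratio of 0.725 (95% interval 0.493 to 1.07), and did not pass (limma, unadjusted p = 0.0916, adjusted p = 1). Without LPS replicate 2 the difference was -0.90, and without LPS replicate 1 it was -0.02. Each of these fits leaves a single treated array, so that its error holds no spread between treated arrays. Over all 19775 genes, 10, with ALDOA itself counted, lay at least as far below the mean of the other 3 arrays on LPS replicate 1 as ALDOA did.

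Other enzymes of the pathway shared the low array. GPI, which turns glucose 6-phosphate into fructose 6-phosphate, was at 12.97 and 13.10 in untreated cells, at 12.53 on LPS replicate 1 and at 13.18 on LPS replicate 2. LDHA, the lactate dehydrogenase subunit induced by HIF-1, was at 13.44 and 13.41, then 13.05 and 13.46. TPI1, which interconverts the triose phosphates that aldolase releases, was at 12.88 and 12.97, then 12.57 and 12.97. In each of these genes LPS replicate 1 was the lowest array and LPS replicate 2 the highest, so that the groups overlapped. The ratio of LPS replicate 1 to the untreated mean was 0.702 for GPI, 0.767 for LDHA and 0.781 for TPI1. The second TPI1 probe set was low on the same array (12.25 against 12.52 to 12.66), while its dimmest one was highest there (7.53 against 7.12 to 7.34). With ALDOA, these were the 4 members at least 0.3 below the untreated mean on LPS replicate 1, or 12.5% of members against 3.65% of all genes. These genes were picked for their values on this same array, so the share is a description and not a test. No member was that low on LPS replicate 2, where 3.33% of all genes were. The hybridisation controls were highest on the same array, and their part in these values was not tested.

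**Figure D2:**
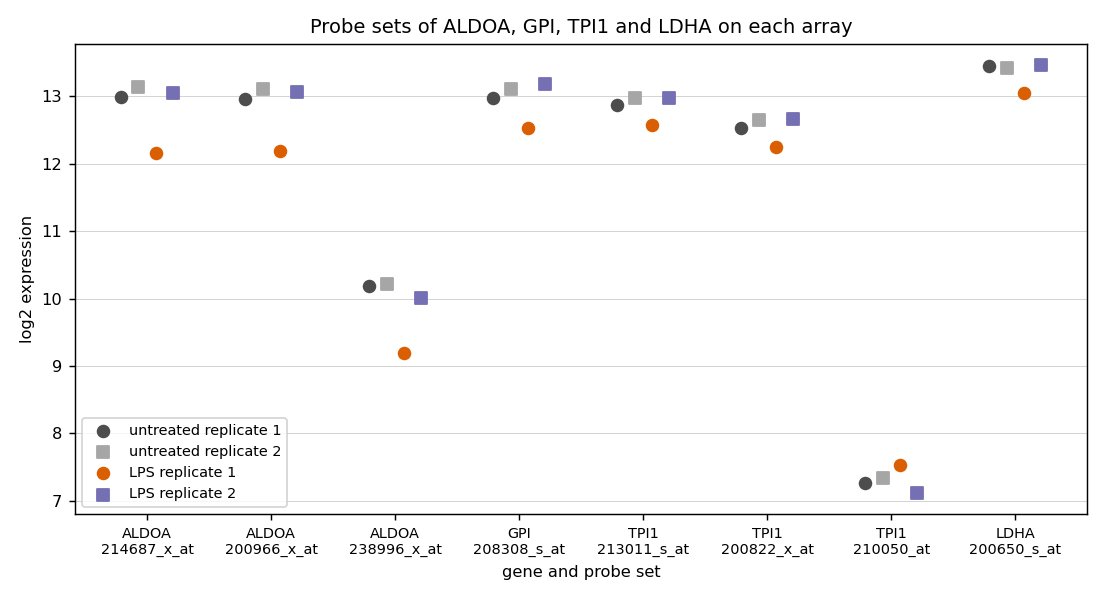
Log2 expression (vertical axis) of every single-symbol probe set of ALDOA, GPI, TPI1 and LDHA (horizontal axis), 1 point per array. LPS replicate 1 is the lowest point in 7 of the 8 probe sets, and the remaining one, the dim TPI1 probe set, has it highest at 7.53.

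The remaining genes of glucose uptake and upper glycolysis did not have LPS replicate 1 as low as these. HK2, an inducible hexokinase, was at 10.91 and 10.92 in untreated cells and at 11.07 and 11.03 with LPS, without overlap. It differed by 0.13 ± 0.09 (SE), and its other probe sets by 0.16 and 0.02. SLC2A1, the glucose transporter GLUT1, was at 12.50 and 12.47, then 12.50 and 12.58, a ratio of 1.04 (interval 0.920 to 1.18). PFKFB3 makes fructose 2,6-bisphosphate, which activates phosphofructokinase. It was at 9.10 and 8.97 in untreated cells and at 8.84 and 8.82 with LPS, so that both treated arrays were low. The difference of -0.20 ± 0.11 (SE) did not pass (limma, unadjusted p = 0.107, adjusted p = 1). The array read this gene with 1 probe set. Its relative PFKFB4 was at 7.02 and 7.0, then 6.96 and 7.36, with LPS replicate 2 alone high, and its dimmer probe set differed by -0.03. HK1, PFKM, PFKP and ALDOC differed by -0.06 to 0.07. PFKL, the liver-type phosphofructokinase, was at 9.02 and 9.39 in untreated cells and at 9.0 and 9.47 with LPS. Its values went with the replicate number and were higher on the arrays numbered 2. The 18S ribosomal RNA probe sets went the other way, higher on those numbered 1, and their part in this was not tested.

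The lower part of the pathway ran from LDHA at -0.18 to PKM at 0.01, with a median of -0.04. Of its 9 genes 1 lay above 0, against 11171 of all 19775 genes. Taken singly, LPS replicate 1 had 2 of the 9 above the untreated mean, against 9223 of all genes. LPS replicate 2 had 4 of the 9 above it, against 12318 of all genes. GAPDH, often used as a reference transcript, was at 14.42 and 14.44 in untreated cells and at 14.35 and 14.45 with LPS. The ratio was 0.977 with an interval of 0.885 to 1.08, and its other 2 probe sets differed by -0.03 and -0.02. PGK1, which makes the first ATP of the pathway, had no overlap, at 12.97 and 12.92, then 12.92 and 12.90. This was a difference of -0.04 ± 0.07 (SE), and 4 of its 6 probe sets lay below 0. PGAM1, the phosphoglycerate mutase, was at 13.29 and 13.34, then 13.24 and 13.26, again without overlap, and differed by -0.06 ± 0.07. Differences of this size are smaller than the error of the fit. ENO1 differed by -0.02 and its dimmer relative ENO2 by -0.07. PKM, the pyruvate kinase, was at 12.76 and 13.18 in untreated cells and at 12.78 and 13.18 with LPS. The PKM arrays numbered 2 stood higher in both groups, as for PFKL, and the groups differed by 0.01 ± 0.17. LDHB, the heart-type lactate dehydrogenase subunit, was at 13.49 and 13.43, then 13.48 and 13.43, a ratio of 0.997 (interval 0.894 to 1.11). LDHA had shown its low value on LPS replicate 1 only. PDK1, which inactivates pyruvate dehydrogenase, was at 8.85 and 8.70, then 8.79 and 8.68, and differed by -0.04. Its dimmest probe set was at 5.88 and 5.97, then 6.41 and 5.98, a difference of 0.27 that rested on LPS replicate 1.

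**Figure D3:**
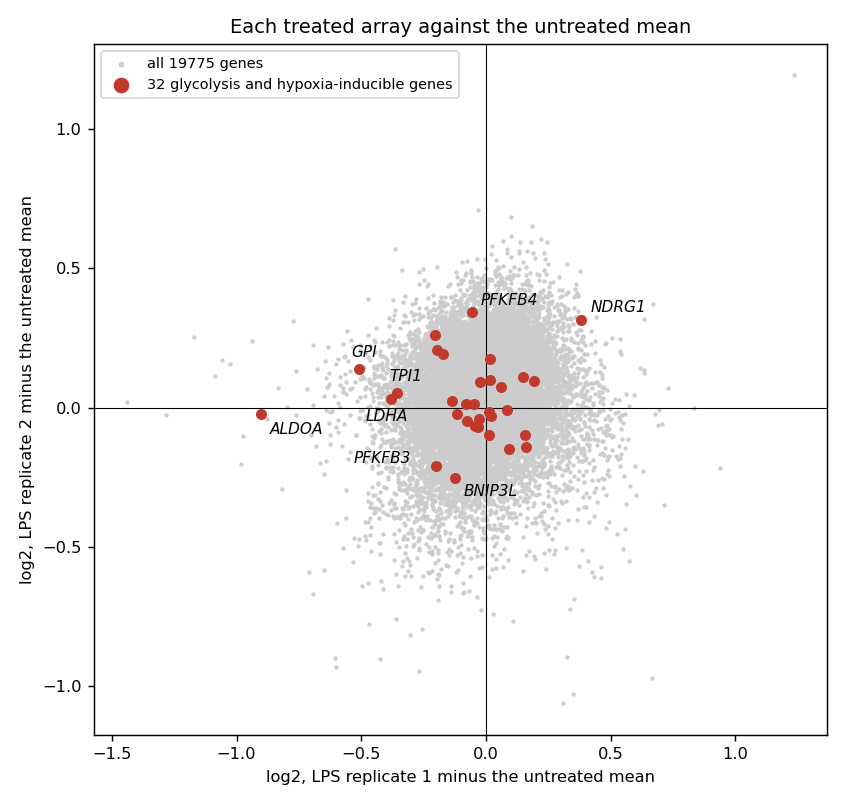
Log2 difference of LPS replicate 1 (horizontal) and LPS replicate 2 (vertical) from the untreated mean, grey for all 19775 genes and red for the 32 members, which share the untreated arrays between the axes. ALDOA lies at -0.90 and -0.02 and NDRG1 at 0.38 and 0.32.

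NDRG1, a stress-responsive gene known for strong induction in hypoxia, had the largest difference above 0 among the members. It was at 8.22 and 8.26 in untreated cells and at 8.62 and 8.56 with LPS. Both treated arrays were above both untreated arrays, 0.38 and 0.32 above their mean. The ratio of 1.27 had an interval of 1.06 to 1.52 and did not pass over all genes (limma, unadjusted p = 0.0149, adjusted p = 1). Its difference ran from 0.32 to 0.38 over 10 other settings, each array left out among them, and passed in none (adjusted p = 0.64 to 1). A single probe set, ending in _s_at, measured it. Whether NDRG1 differs from the other members was not tested.

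The other hypoxia-inducible genes outside glycolysis differed by -0.19 to 0.14. VEGFA, the angiogenic growth factor, was at 12.81 and 12.74 in untreated cells and at 12.86 and 12.77 with LPS. Its ratio was 1.03 with an interval of 0.907 to 1.16, and its 4 probe sets lay at 0.04 to 0.16. MXI1, an antagonist of MYC, was at 10.01 and 9.87, then 10.13 and 10.03, a difference of 0.14 ± 0.11 (SE) without overlap. ANGPTL4, an inhibitor of lipoprotein lipase, was at 6.58 and 6.60, then 6.61 and 6.76, and both of its probe sets were without overlap, at 0.09 and 0.13. BNIP3L, a mitophagy receptor, was at 10.19 and 9.99, then 9.96 and 9.84, a difference of -0.19 ± 0.11 (SE). Its second probe set differed by 0.18, so that the probe sets of BNIP3L disagree in direction. BNIP3, a related mitophagy receptor, was dim at 4.75 and 4.52, then 4.80 and 4.49, and differed by 0.01. ADM, encoding the vasodilator adrenomedullin, differed by 0.00 and ran from 6.10 to 6.47 within the untreated group. KDM3A, a histone demethylase, differed by 0.03 and ANKRD37 by -0.03.

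EGLN3 and P4HA1 had probe sets that disagreed. EGLN3, a prolyl hydroxylase that is itself a HIF target, was at 9.70 and 9.56 in untreated cells and at 9.61 and 9.73 with LPS, a difference of 0.04. Its dimmer probe set was at 8.82 and 8.49, then 8.40 and 8.45, a difference of -0.22 without overlap. P4HA1, a collagen prolyl hydroxylase subunit, was at 10.02 and 9.83, then 9.88 and 9.86, a difference of -0.06. Its dim probe set was at 3.94 and 3.68, then 4.13 and 3.95, a difference of 0.23. In all, 21 members had more than 1 probe set, and for 9 of them the signs differed.

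**Figure D4:**
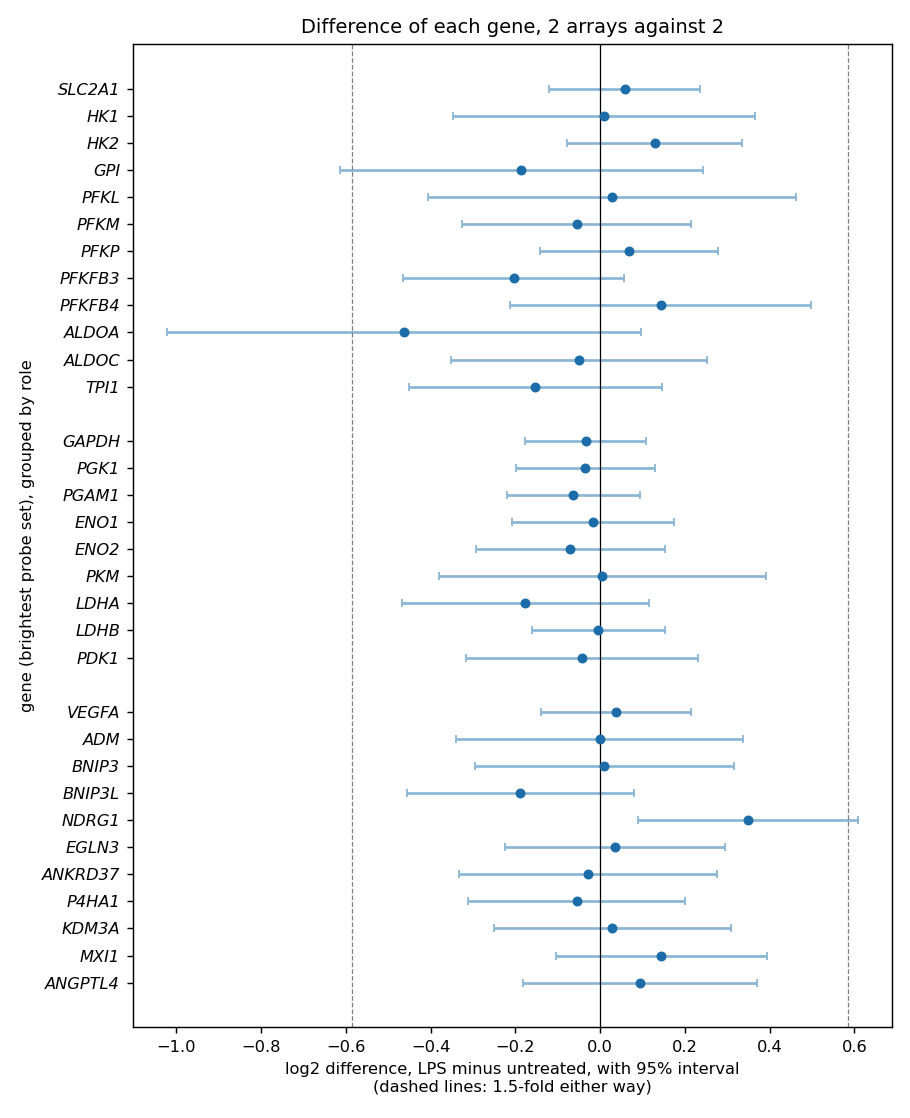
Log2 difference of LPS minus untreated cells for each gene (point) with the 95% interval of the fit (bar), 2 arrays a group. The dashed lines mark 1.5-fold, and the bars of ALDOA, GPI and NDRG1 cross them.

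The regulators of the pathway showed no difference past the test either. HIF1A mRNA was at 13.33 and 13.34 in untreated cells and at 13.28 and 13.28 with LPS. The treated arrays were lower without overlap, by -0.05 ± 0.07 (SE), and HIF1A protein was not measured. Its relative EPAS1 (HIF-2α) was at 10.76 and 10.73, then 10.78 and 10.71, a difference of 0.00. ARNT, the partner subunit, was at 9.12 and 9.24, then 8.80 and 9.17, with LPS replicate 1 alone low. VHL was at 8.97 and 9.07, then 9.28 and 9.14, a difference of 0.19 that turned to -0.04 without _x_at and _s_at probe sets. EGLN1, the main oxygen sensor of the EGLN enzymes, was at 11.97 and 11.96, then 11.90 and 11.85, a difference of -0.09. Of the 10 HIF subunits and oxygen-sensing regulators, 0 had an unadjusted p under 0.05 (limma), against 2.83% of all genes, and 5 lay on each side of 0.

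Related genes outside the members did not pass the adjusted test either (limma). Of 30 other hypoxia-inducible genes 28 were measured, 17 above 0 and 11 below, with a median of 0.04, and 1 had an unadjusted p under 0.05 (limma), or 3.57%, near the 2.83% of all genes. This was PLOD2, a collagen lysyl hydroxylase gene, at 5.17 and 4.99 in untreated cells and 5.42 and 5.40 with LPS (adjusted p = 1). RBCK1 and the adenylate kinase gene AK4 followed at 0.17 and 0.19. Of 19 other glycolytic isozymes and regulators 14 were measured, with 0 under 0.05 (against 2.83% of all genes), and 10 of them below the median level over genes. The glucose transporter gene SLC2A3 differed by -0.13, the bisphosphoglycerate mutase gene BPGM by -0.33 and the dim PGAM2 by 0.31. BPGM was at 6.36 and 6.15 in untreated cells, then 6.16 and 5.70, with LPS replicate 2 alone low. PGAM2 was at 4.86 and 4.95, then 5.03 and 5.40, highest on the same array. Among 21 genes of pyruvate entry, gluconeogenesis and the pentose phosphate pathway 19 were measured, with a median of -0.01. PCK2, the mitochondrial enzyme that makes phosphoenolpyruvate, was the 1 gene under 0.05 (5.26% of the 19, against 2.83%), at 11.43 and 11.69, then 11.86 and 11.85 (limma, adjusted p = 1). PDHB, a pyruvate dehydrogenase subunit, differed by -0.15 and PDK4 by -0.18.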

How the data were processed

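RNA of 2 untreated and 2 LPS-treated AGS cultures was labelled and hybridised to 1-colour arrays, per the labels' protocols. The deposited table gave log2 values for 54675 probe sets per array. Per the submitters' processing notes MAS5 and RMA were used, and their roles and versions are not given in the sources used here. The log2 values, with array medians of 6.31 to 6.36, were used as deposited.

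Of the probe sets, 62 controls were left out, and 41091 of the rest had 1 symbol, 1801 several and 11721 none. Symbols of 41037 were found in a current RefSeq table by gene number (0 needed updating). The brightest probe set stood for each of 19775 genes, and level medians are taken over those genes.

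LPS was tested against untreated by limma 3.58.1 (R 4.3.3), using lmFit and eBayes with a trend on intensity and no covariate. The two-sided p-values were adjusted by Benjamini-Hochberg over the 19775 genes and called at 0.05. The fit was tested on simulated data. Probe sets other than the brightest come from a fit over all probe sets. An exact permutation test of 2 arrays against 2 cannot give a p under 0.333. The number of arrays limits the precision. Members and lists were chosen with earlier results of these data known. Values on each array were given for members with an unadjusted p under 0.05, members without overlap of the arrays that differed by at least 0.2, members whose probe sets disagreed in sign with one at least 0.2 in size and 5 regulators. Of each other list up to 3 genes were named by smallest unadjusted p, some by their difference alone. The values of other members were picked with those values in view. The alternatives normalized by quantiles, dropped dim genes at the median level, averaged a gene's probe sets, removed _x_at and _s_at probe sets, left off the trend, tested each probe set singly, added a replicate block or left out each array. Figures were drawn with matplotlib 3.10.9.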

Additional observations from a re-analysis of the deposited data

How the results depend on the processing

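No gene passed the adjusted threshold (limma) in either direction when values were quantile-normalized, dim genes dropped at the median level, a gene's probe sets averaged, _x_at and _s_at probe sets removed, the intensity trend left off, each probe set tested singly or the replicate block added, and 267 genes (the filter at the median level, of 9888 tested) to 1487 genes (replicate block) had an unadjusted p under 0.05. Leaving out 1 array gave 0 to 2 higher genes, 0 to 14 lower genes and 0 to 1 member, all of them from the fit without LPS replicate 2, which takes the spread of the untreated pair for both groups. Members without overlap ran from 6 of 18 (without _x_at and _s_at probe sets) to 10 of 32 (mean of probe sets) under the other settings. With 1 array left out they numbered 16 to 23 of 32, since a single array in a group overlaps less by construction. The shares over all genes were not taken under these settings, so the counts show nothing particular to the members. The members' median ran from -0.04 to 0.02. Under the replicate block the adjusted count over all genes and over members was 0. There 4 of 32 members and 1487 of 19775 genes had an unadjusted p under 0.05 (limma). In the main fit these were 1 member and 559 genes, and whether the shares differ was not tested. The labels do not say that a number marks a shared experiment, and the deviations of arrays with one number correlated at r = 0.44 over genes, which are not independent replicates.

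Of 480 values of named genes under other settings, 43 changed sign, none of them past the threshold in either setting, and the cause was not tested. BNIP3 was at -0.011 with quantile normalization. With the mean of probe sets, PDK1 was at 0.076, EGLN3 at -0.094, P4HA1 at 0.087, KDM3A at -0.0016 and PDK4 at 0.048. Without _x_at and _s_at probe sets, TPI1 was at 0.023, ENO1 at 0.062, P4HA1 at 0.23 and VHL at -0.039, and 14 members, ALDOA and NDRG1 among them, had no probe set left. With 1 array left out, HK1 ran from -0.17 to 0.19, GPI from -0.51 to 0.14, PFKL from -0.20 to 0.26, PFKM from -0.14 to 0.024, PFKP from -0.00076 to 0.14, PFKFB4 from -0.056 to 0.34, ALDOC from -0.17 to 0.073 and TPI1 from -0.36 to 0.051. GAPDH ran from -0.081 to 0.012, ENO1 from -0.089 to 0.055, PKM from -0.21 to 0.22, LDHA from -0.38 to 0.029, LDHB from -0.035 to 0.026, PDK1 from -0.12 to 0.031 and VEGFA from -0.0089 to 0.084. ADM ran from -0.19 to 0.18, BNIP3 from -0.14 to 0.16, EGLN3 from -0.036 to 0.11, ANKRD37 from -0.15 to 0.093, P4HA1 from -0.15 to 0.038, KDM3A from -0.10 to 0.16 and EPAS1 from -0.035 to 0.038. Signal over background was not measured, and 6 members lay below the median level over genes.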
